A study of Mus musculus with 12 samples.

Results

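The Slc27 and Acsl genes of the mouse were followed in testes lacking Sohlh1 or Sohlh2. The list held 9 genes, Slc27a1 to Slc27a4 and Acsl1, Acsl3, Acsl4, Acsl5 and Acsl6. It was chosen by the signal of Slc27a2, whose fall in the knockouts was among the largest in these arrays. The other genes were taken to see whether the families share that fall. A probe set is a group of short oligonucleotides that reads 1 or more transcripts on an Affymetrix array. It was a member if it was annotated to exactly 1 of these symbols. Of the 9 genes, 8 had such a probe set, and Acsl1 was not analysed here. The members were 14 probe sets of the 45101 in the table, 5 for Slc27 genes and 9 for Acsl genes, and all 14 were bright enough to be tested.

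The 12 arrays held RNA from testes of mice at postnatal day 7 on a C57BL/6, 129S5, SvEvBrd hybrid background. There were 4 arrays of Sohlh1-/- mice, 4 of Sohlh2-/- mice and 4 of wild-type mice, here called Sohlh1 knockout, Sohlh2 knockout and wild type. Each array carried a pool of 3 testes, 1 from each animal, so p-values measure the spread between pools. The 2 proteins, both of the basic helix-loop-helix class, act as transcription factors in the germ line and are needed for spermatogonia to differentiate. The labels do not describe the alleles further, and each testis holds somatic cells and germ cells together. In such bulk samples fewer cells of a type and less RNA per cell cannot be told apart.

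Fatty acids enter metabolism only after they are joined to coenzyme A. The Acsl enzymes do this for long-chain fatty acids on the endoplasmic reticulum, mitochondria, lipid droplets and other membranes. The Slc27 proteins, also called fatty acid transport proteins, promote uptake of fatty acids and are acyl-CoA synthetases themselves, with a preference for very long chains in several members. The testis is rich in long polyunsaturated fatty acids, which germ cells and Sertoli cells place in their membrane lipids.

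Promoters of Slc27a2 and Acsl3 are shown because the only member probe sets whose signals stood apart from wild type in both knockouts belonged to these genes. Sequences are from RefSeq, build GRCm38.p6, and run 5′ to 3′ over 250 bases before and 50 bases after the annotated start. Slc27a2 lies at chr2:126552774-126553073 on the plus strand, and Acsl3 at chr1:78657575-78657874 on the plus strand. Capitals mark E-boxes, the motif CANNTG that basic helix-loop-helix proteins as a class bind. The motif reads the same on both strands, and matches that overlap were counted separately.
Slc27a2: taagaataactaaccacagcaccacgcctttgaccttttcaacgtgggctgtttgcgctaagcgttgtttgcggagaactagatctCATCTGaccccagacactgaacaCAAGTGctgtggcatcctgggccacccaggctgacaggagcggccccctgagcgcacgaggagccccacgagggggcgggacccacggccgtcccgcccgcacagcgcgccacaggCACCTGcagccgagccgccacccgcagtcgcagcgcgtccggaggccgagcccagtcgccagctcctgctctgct
Acsl3: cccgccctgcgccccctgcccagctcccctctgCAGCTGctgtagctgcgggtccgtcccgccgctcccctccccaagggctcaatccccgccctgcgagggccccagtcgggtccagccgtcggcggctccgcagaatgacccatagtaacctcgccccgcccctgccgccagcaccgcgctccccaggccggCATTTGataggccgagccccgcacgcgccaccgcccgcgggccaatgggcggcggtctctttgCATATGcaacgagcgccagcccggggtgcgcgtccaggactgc
Each of these promoters held 3 E-boxes, and 17.6% of 32851 mouse promoters of the same length held at least 3. Counted with the start base as 1, they began at -164, -141 and -25 in Slc27a2 and at -217, -56 and 8 in Acsl3. Over the 14 promoters listed for the 9 genes, 12 held an E-box, against 72.3% of all promoters. Acsl6, whose probe sets passed in no contrast, had promoters with 3, 0 and 4 E-boxes. A match is a run of letters and shows no binding.

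Signals are MAS5 intensities on a linear scale, and levels are compared only within a probe set. Array medians were 76.6 to 90.8. Sohlh1 had signals of 50.2 to 104 on the arrays labelled Sohlh1 knockout 2, 3 and 4 and of 595 on the array labelled Sohlh1 knockout 5, against 1125 to 1233 in wild type. Sohlh2 had signals of 73.2 to 157 on the arrays labelled Sohlh2 knockout 3-1, 4 and 5 and of 1847 on the array labelled Sohlh2 knockout 1, against 885 to 1200 in wild type. On the array labelled Sohlh1 knockout 5 the signal of Sohlh2 was 94.4, and on that labelled Sohlh2 knockout 1 the signal of Sohlh1 was 126. Sohlh2 read 1556 to 1783 on the arrays labelled Sohlh1 knockout 2, 3 and 4. Sohlh1 read 465 to 563 on those labelled Sohlh2 knockout 3-1, 4 and 5. In both genes the arrays labelled Sohlh1 knockout 5 and Sohlh2 knockout 1 thus lie nearer the other knockout group than their own. These 2 arrays go against their labels, and were kept in their labelled groups. The ratio of 3′ to 5′ signal of the Actb control, a measure of RNA integrity, was 2.10 on the array labelled Sohlh1 knockout 2 and 3.56 on that labelled Sohlh2 knockout 1, and 1.30 to 1.45 on the other 10 arrays. Results below are given with and without these 3 arrays where they bear on a member.

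Slc27a2 encodes FATP2, a very long-chain acyl-CoA synthetase and fatty acid transporter best known from liver and kidney. Its probe set 1416316_at had signals of 95.5, 76.4, 80.8 and 48.9 on the Sohlh1 knockout arrays. On the Sohlh2 knockout arrays the signals were 100, 65.7, 67.9 and 86.8. Wild-type arrays read 269, 288, 419 and 408. Every knockout array lay below every wild-type array, as for 6.08% of all tested probe sets in Sohlh1 knockout and 4.69% in Sohlh2 knockout, and the highest knockout signal belonged to the array labelled Sohlh2 knockout 1. Mean signals were 75.4 ± 19.5 in Sohlh1 knockout and 80.2 ± 16.5 in Sohlh2 knockout, against 346 ± 78.7 in wild type (SD, n = 4 each), or 21.8% and 23.2% of wild type. The log2 fold change, on log2(signal + 14.2), was -2.01 (SE 0.22) in Sohlh1 knockout and -1.92 (SE 0.22) in Sohlh2 knockout. Ordered by this value, Slc27a2 was number 9 among the falls of all 28694 tested probe sets in Sohlh1 knockout and number 13 in Sohlh2 knockout. Because the gene was picked for these differences they are descriptions and carry no p-value.

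**Figure D1:**
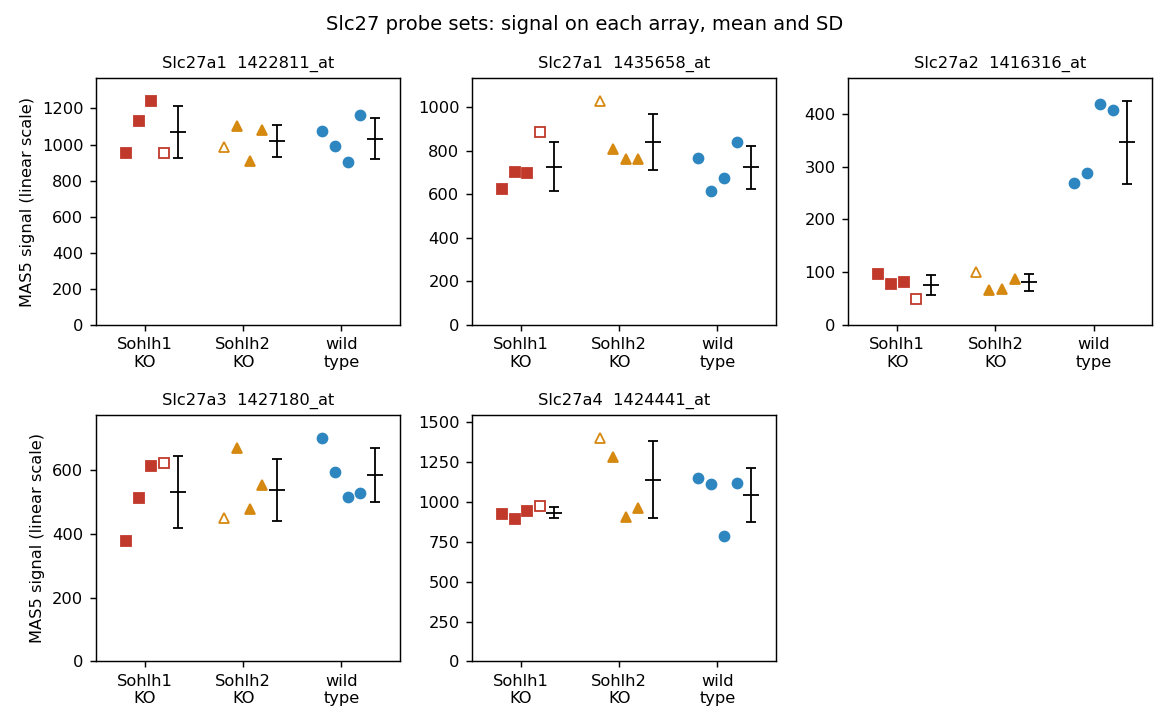
MAS5 signal on a linear scale for the 5 Slc27 probe sets on each array of Sohlh1 knockout (squares), Sohlh2 knockout (triangles) and wild type (circles), with the group mean and SD as black bars (n = 4 each). Open symbols are the 2 arrays whose Sohlh1 and Sohlh2 signals go against the label. Slc27a2 lies between 48.9 and 100 on all knockout arrays and between 269 and 419 in wild type, while the groups of the other 4 probe sets overlap.

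The size of the Slc27a2 difference did not rest on the arrays that stand apart. Without the 2 arrays that go against their labels the log2 fold changes were -1.85 in Sohlh1 knockout and -2.02 in Sohlh2 knockout. Leaving out the 2 arrays whose Actb ratio was high gave -2.12 and -2.02, and without all 3 arrays -1.93 and -2.02. The knockouts were also compared with each other, a contrast the choice of the gene did not use. Slc27a2 was 0.09 log2 units higher in Sohlh2 knockout than in Sohlh1 knockout (95% interval -0.39 to 0.56, limma adjusted p = 1), and its groups overlapped. Without the 2 arrays that go against their labels that difference was -0.17. With all arrays the deleted genes themselves did not pass in this contrast, so its adjusted p does not show that the knockouts are alike.

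Markers of germ cell stages moved beside Slc27a2. The list of 10 markers of differentiating spermatogonia holds Sohlh1 and Sohlh2, each of which is deleted in 1 of the knockouts. It is therefore described by the other 8, a choice made after seeing the data. All marker lists were written with earlier results of these data known. Their counts are therefore descriptions, and the shares over all genes beside them make no test of the lists. The signals of the 8 summed to 11796 to 12417 per Sohlh1 knockout array and 12236 to 15971 per Sohlh2 knockout array, against 17775 to 21591 per wild-type array. Neither knockout overlapped wild type in this sum, in which the brightest probe sets weigh most. Of single tested probe sets, 6.08% lay wholly below wild type in Sohlh1 knockout and 4.69% in Sohlh2 knockout. Kit, Dmrtb1, Crabp1 and Esx1 fell in both knockouts and Prss50 in Sohlh1 knockout, which makes 5 and 4 of 8, and none of the 8 rose. Of all 13702 genes tested, each by its brightest probe set, 1.83% fell in Sohlh1 knockout and 1.28% in Sohlh2 knockout, and 1.06% and 0.898% rose. Leaving out the 2 arrays that go against their labels, 5 of the 8 fell in each knockout. Of 14 markers of germ cells at any stage, Tex11 fell and Dppa4 and Stk31 rose in both knockouts, and of 12 markers of undifferentiated spermatogonia Gfra1 and Id4 rose in both. Of 55 tested markers of Sertoli, Leydig, peritubular, endothelial, macrophage, erythroid and fat cells none passed the limma test in either knockout. Only 3 erythroid and 3 fat cell genes were among them. At an unadjusted p under 0.05 there were 5 in Sohlh1 knockout and 4 in Sohlh2 knockout. Of all genes 17.7% and 16.2% reached that level. Of 15 Sertoli markers, 1 had a negative log2 fold change in Sohlh1 knockout and 5 in Sohlh2 knockout. Their medians were 0.15 and 0.10, against 0.03 and 0.02 over all genes. The part of these marker changes in the Slc27a2 difference was not tested. The defining fat cell markers Adipoq, Lep, Cidec and Pparg did not reach the filter for testing.

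The likeness of other genes to Slc27a2 was measured as the root-mean-square difference of log2 profiles over the 12 arrays, each centred on its own mean. The median over all genes was 0.972. The closest were Tbx1 at 0.247 and Mbnl3 at 0.259, a T-box transcription factor and an RNA-binding splicing regulator. Esx1, an X-linked homeobox gene, followed at 0.298, then Kit, the stem cell factor receptor, at 0.345 and Ccng1, which encodes cyclin G1, at 0.346. Tbx1 averaged 89.1 ± 10.4 in Sohlh1 knockout and 101 ± 11.9 in Sohlh2 knockout, against 496 ± 83.4 in wild type (SD, n = 4 each). Among the other members the closest was Acsl4 1451828_a_at at 0.849, and the farthest was Acsl3 1428387_at at 1.49. No other member was near the profile of Slc27a2 on this measure. The measure includes the fall from wild type for which Slc27a2 was picked, so a gene without that fall is distant by construction. These values are therefore a description and add no separate support.

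The other Slc27 genes did not share the fall. Slc27a1 encodes FATP1, the transporter known from muscle and fat, and had 2 probe sets. The brighter, 1422811_at, read 951, 1131, 1243 and 955 in Sohlh1 knockout and 985, 1101, 909 and 1082 in Sohlh2 knockout, against 1073, 991, 904 and 1165 in wild type. All 3 groups overlapped. Its log2 fold change was 0.05 (95% interval -0.20 to 0.30, limma adjusted p = 0.891) in Sohlh1 knockout and -0.02 (-0.27 to 0.23, adjusted p = 0.969) in Sohlh2 knockout. The lower bounds lie far from the size seen for Slc27a2. The second probe set, 1435658_at, averaged 728 ± 111 in Sohlh1 knockout and 840 ± 128 in Sohlh2 knockout, against 724 ± 99.4 in wild type, and did not pass the test in either.

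Slc27a3 encodes an acyl-CoA synthetase of the same family whose part in uptake is less clear. Its probe set 1427180_at read 378, 514, 614 and 623 in Sohlh1 knockout and 450, 669, 478 and 554 in Sohlh2 knockout, against 703, 595, 517 and 529 in wild type. The log2 fold change was -0.15 (95% interval -0.52 to 0.21) in Sohlh1 knockout and -0.13 (-0.49 to 0.24) in Sohlh2 knockout, and neither passed the test. Slc27a4 encodes FATP4, which the skin barrier of mice requires. Its probe set 1424441_at read 926, 891, 941 and 973 in Sohlh1 knockout and 1404, 1282, 907 and 964 in Sohlh2 knockout, against 1152, 1111, 788 and 1121 in wild type. The Sohlh1 knockout signals lay below 3 of the 4 wild-type signals, and the groups overlapped in both comparisons. Slc27a4 differed by -0.14 (95% interval -0.47 to 0.18) in Sohlh1 knockout and by 0.12 (-0.20 to 0.44) in Sohlh2 knockout, and neither value passed the test.

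Among the Acsl genes 1 probe set rose. Acsl3 encodes an acyl-CoA synthetase of the endoplasmic reticulum and lipid droplets. Its dimmest probe set, 1428387_at, read 173, 245, 158 and 156 in Sohlh1 knockout and 231, 189, 161 and 199 in Sohlh2 knockout, against 127, 77.8, 62.3 and 68.6 in wild type. Every knockout array lay above every wild-type array. The mean was 183 ± 42.2 in Sohlh1 knockout and 195 ± 28.9 in Sohlh2 knockout, against 83.9 ± 29.3 in wild type (SD, n = 4 each). The log2 fold change was 1.03 (SE 0.22, limma adjusted p = 0.0252) in Sohlh1 knockout and 1.12 (SE 0.22, limma adjusted p = 0.0171) in Sohlh2 knockout. The knockouts differed from each other by 0.10 (95% interval -0.37 to 0.56, Sohlh2 knockout minus Sohlh1 knockout, adjusted p = 1).

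The Acsl3 call was close to the threshold, and the other probe sets of the gene did not show it. Leaving out 1 array at a time kept the difference at 0.89 to 1.22 in Sohlh1 knockout and 1.02 to 1.31 in Sohlh2 knockout. It passed the test in 6 of 12 and 8 of 12 such fits, with limma adjusted p up to 0.091 and 0.0679. In both knockouts it was lost without wild type 4, 5 or 6. In Sohlh1 knockout it was also lost without Sohlh1 knockout 2, 3 or 4, and in Sohlh2 knockout without Sohlh2 knockout 5. Without the 3 arrays that stand apart it was 1.15 (adjusted p = 0.0539) in Sohlh1 knockout and 1.04 (adjusted p = 0.0363) in Sohlh2 knockout. The brightest Acsl3 probe set, 1452771_s_at, read 1373, 1592, 1355 and 1371 in Sohlh1 knockout and 1372, 1369, 1377 and 1466 in Sohlh2 knockout, against 1599, 1468, 1657 and 1217 in wild type. Its log2 fold changes were -0.06 and -0.08, and its 95% intervals ended at 0.17 in Sohlh1 knockout and 0.14 in Sohlh2 knockout. The third, 1428386_at, averaged 428 ± 91.9 in Sohlh1 knockout and 338 ± 53.3 in Sohlh2 knockout, against 395 ± 79.9 in wild type, and did not pass the test. All 3 are annotated to the same transcript record, and their readings disagree. The probe sets were not placed on the transcripts of the gene. Whether they read the same stretch or the same transcript forms is therefore not known.

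**Figure D2:**
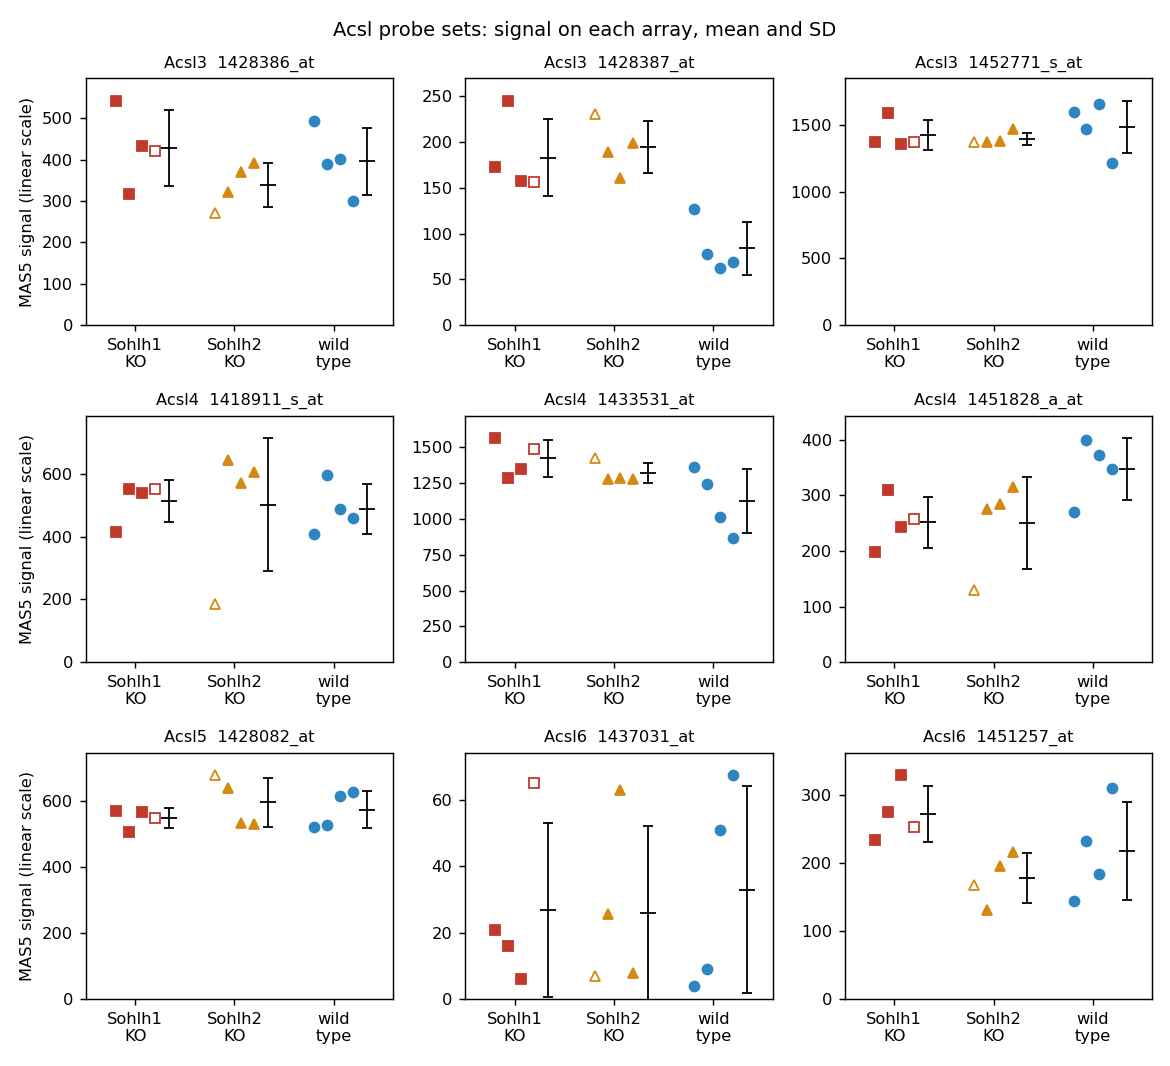
MAS5 signal on a linear scale for the 9 Acsl probe sets on each array of Sohlh1 knockout (squares), Sohlh2 knockout (triangles) and wild type (circles), with the group mean and SD as black bars (n = 4 each). Open symbols are the 2 arrays whose Sohlh1 and Sohlh2 signals go against the label. In Acsl3 1428387_at all knockout signals, 156 to 245, lie above the wild-type signals of 62.3 to 127, and in Acsl6 1451257_at the Sohlh2 knockout signals lie below those of Sohlh1 knockout.

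Acsl4 encodes the synthetase that prefers arachidonic acid and related polyunsaturated fatty acids. Its brightest probe set, 1433531_at, read 1565, 1285, 1349 and 1489 in Sohlh1 knockout and 1423, 1282, 1288 and 1282 in Sohlh2 knockout, against 1365, 1245, 1011 and 870 in wild type. It was 0.36 log2 units higher in Sohlh1 knockout (SE 0.13, limma adjusted p = 0.2) and 0.25 higher in Sohlh2 knockout (SE 0.13, adjusted p = 0.421), and neither value passed the test. Of the remaining Acsl4 probe sets, 1451828_a_at averaged 252 ± 45.8 in Sohlh1 knockout and 251 ± 82.5 in Sohlh2 knockout, against 348 ± 55.4 in wild type. Its log2 fold changes were -0.45 (adjusted p = 0.395) and -0.50 (adjusted p = 0.366), the opposite sign to the brightest probe set.

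Signals of 2 Acsl4 probe sets were low on the arrays of high 3′ to 5′ ratio. Acsl4 1418911_s_at read 187 on the array labelled Sohlh2 knockout 1, against 571 to 644 on the other Sohlh2 knockout arrays. On the array labelled Sohlh1 knockout 2 it read 414, against 539 to 553 on the other Sohlh1 knockout arrays. Acsl4 1451828_a_at was lowest on the same arrays, at 130 and 199. The brightest probe set was instead highest in its group on both, at 1423 and 1565. Without the array labelled Sohlh2 knockout 1, 1418911_s_at differed from wild type by 0.32 in Sohlh2 knockout, against -0.09 with it, and 1451828_a_at by -0.23, against -0.50 with it. None of these values passed the test, and the part of RNA integrity in them was not tested.

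**Figure D3:**
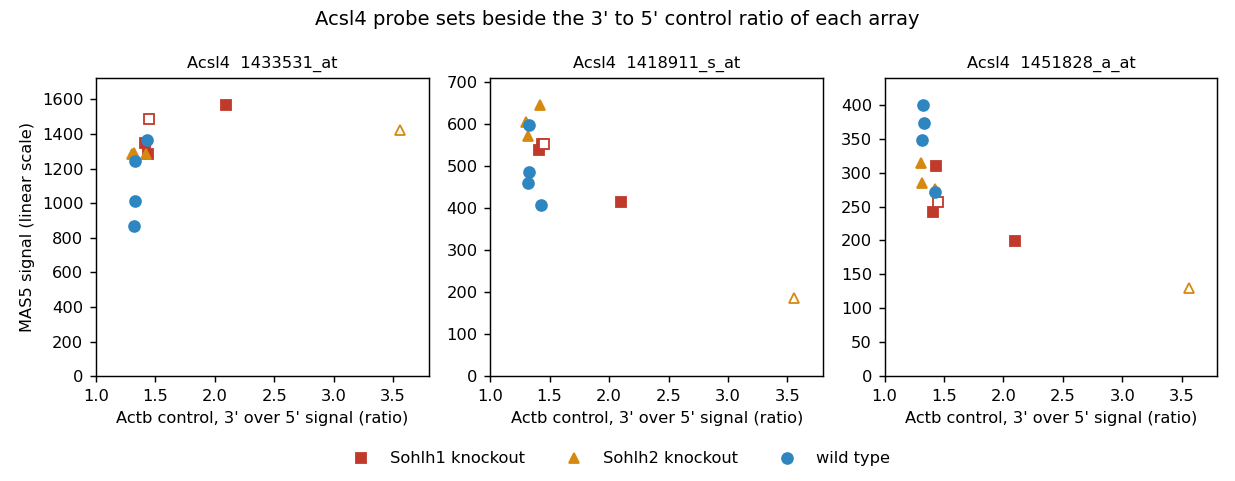
MAS5 signal of the 3 Acsl4 probe sets (vertical, linear scale) against the 3′ to 5′ signal ratio of the Actb control (horizontal), 1 point per array, for Sohlh1 knockout (squares), Sohlh2 knockout (triangles) and wild type (circles), with the 2 arrays that go against their labels open. On the array of ratio 3.56 the signals of 1418911_s_at and 1451828_a_at are 187 and 130, the lowest of all 12 arrays, while 1433531_at is at 1423.

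Acsl5 encodes a synthetase of mitochondria and the endoplasmic reticulum best known from the intestine. Its probe set 1428082_at read 571, 506, 568 and 550 in Sohlh1 knockout and 678, 638, 534 and 532 in Sohlh2 knockout, against 523, 528, 615 and 627 in wild type. The groups overlapped. The log2 fold change was -0.06 (95% interval -0.31 to 0.19) in Sohlh1 knockout and 0.05 (-0.20 to 0.30) in Sohlh2 knockout, without passing the test.

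Acsl6 encodes a synthetase of brain and testis that in mice is needed for normal levels of docosahexaenoic acid. Its brighter probe set, 1451257_at, read 234, 274, 329 and 252 in Sohlh1 knockout and 168, 132, 195 and 216 in Sohlh2 knockout, against 144, 232, 184 and 310 in wild type. The wild-type arrays spanned most of the range of both knockouts. Acsl6 differed from wild type by 0.35 (95% interval -0.12 to 0.81, limma adjusted p = 0.483) in Sohlh1 knockout and by -0.24 (-0.70 to 0.22, adjusted p = 0.667) in Sohlh2 knockout. Between the knockouts every Sohlh2 knockout array lay below every Sohlh1 knockout array, a pattern that 0.917% of all tested probe sets showed in this direction and 0.979% in the other. The difference was -0.59 (95% interval -1.05 to -0.13) with an unadjusted p of 0.0158 and a limma adjusted p of 1, so it did not pass. Without the 2 arrays that go against their labels it was -0.60 (adjusted p = 0.737). The other Acsl6 probe set, 1437031_at, read 4.17 to 67.5 over the 12 arrays, passed the filter on 4 of them, and showed no group order.

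Counted over the 14 member probe sets, 1 fell and 1 rose in Sohlh1 knockout, against 1.38% that fell and 0.707% that rose among all 28694 tested probe sets. In Sohlh2 knockout the count was again 1 and 1, against 0.944% and 0.606% of all. Either way, 2.09% of all tested probe sets passed in Sohlh1 knockout and 1.55% in Sohlh2 knockout. The fall was that of Slc27a2, which the choice of the gene fixes. Of the 13 probe sets without it, 0 fell and 1 rose in each knockout, with 2 of 13 in each at an unadjusted p under 0.05. Of all tested probe sets 14.9% reached that level in Sohlh1 knockout and 13.5% in Sohlh2 knockout. The 13 had a median log2 fold change of 0.01 in Sohlh1 knockout and -0.08 in Sohlh2 knockout, against 0.00 for all tested probe sets in each. Groups that do not overlap, higher in the knockout, were found for 1 of the 13 in each knockout and for 5.07% and 4.14% of all tested probe sets. The knockout comparisons share the wild-type arrays. Between the knockouts 0 of the 14 passed the limma test, with 1 at an unadjusted p under 0.05. Of all tested probe sets 0% passed, with 767 (2.67%) at an unadjusted p under 0.05. Sohlh1 and Sohlh2, the deleted genes, did not pass there either, and each group holds 1 array that goes against its label. A value that did not pass in this contrast thus does not show that the knockouts are alike.

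**Figure D4:**
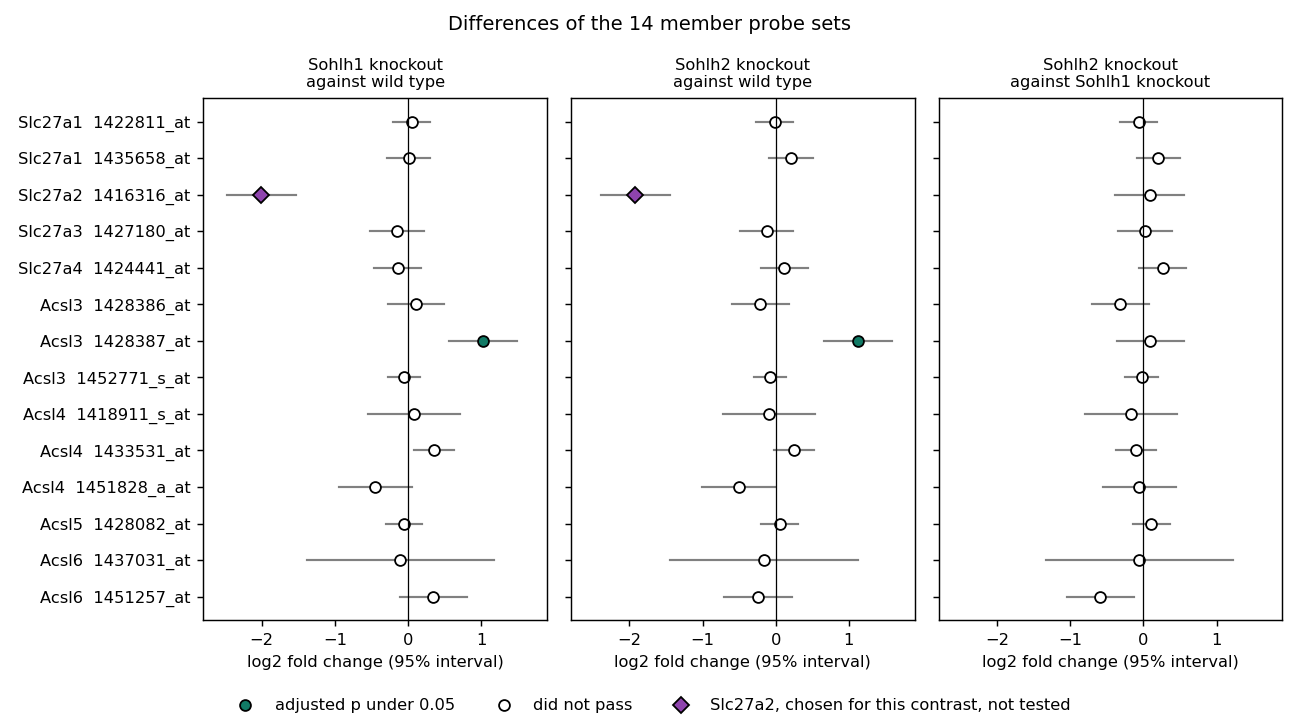
Log2 fold change (horizontal, on log2(signal + 14.2)) of the 14 member probe sets with 95% intervals from limma, for each knockout against wild type and, on the right, Sohlh2 knockout against Sohlh1 knockout. Filled circles passed an adjusted p of 0.05, open circles did not, and the diamonds for Slc27a2 were not tested. Slc27a2 stands at -2.01 and -1.92 and Acsl3 1428387_at at 1.03 and 1.12, while the lowest bound of any other interval against wild type is -1.44.

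Other genes of fatty acid metabolism were read from 8 lists, each gene by its brightest tested probe set. Of 142 genes tested, 3 fell and 1 rose in Sohlh1 knockout, against 1.83% that fell and 1.06% that rose among 13702 genes. In Sohlh2 knockout 0 fell and 2 rose, against 1.28% and 0.898%. At an unadjusted p under 0.05 there were 29 of the 142 in Sohlh1 knockout and 18 in Sohlh2 knockout, against 17.7% and 16.2% of all genes. The median log2 fold change of the 142 was 0.06 and 0.03, against 0.03 and 0.02 over all genes.

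Lists nearest to the members in function held no called gene. Of 6 other acyl-CoA synthetases and transport proteins tested, 0 passed the test in either knockout, with medians of 0.07 and 0.10. Of 17 genes of fatty acid uptake, binding and acyl-CoA binding, 0 passed, with medians of 0.16 and 0.08. Cd36, a cell surface receptor for long-chain fatty acids, averaged 146 ± 63.6 in Sohlh1 knockout and 162 ± 59.2 in Sohlh2 knockout, against 186 ± 41.7 in wild type (SD, n = 4 each). None of 22 genes of mitochondrial fatty acid oxidation, 20 of peroxisomal metabolism, where FATP2 is thought to act in part, 27 of synthesis, elongation and desaturation, or 11 lipid-sensing transcription factors passed in either knockout. Leaving out the 2 arrays whose Actb ratio was high, 1 peroxisomal gene rose in Sohlh1 knockout and 1 gene of the synthesis list fell in Sohlh2 knockout.

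The genes that passed lay on the lists of thioesterases and of triglyceride and phospholipid acylation. Gpat2, a glycerol-3-phosphate acyltransferase of the testis, was called in both knockouts. It read 2040, 1854, 1688 and 2051 in Sohlh1 knockout and 2645, 1831, 2207 and 1949 in Sohlh2 knockout, against 1061, 879, 1166 and 1057 in wild type. No knockout signal overlapped wild type. Gpat2 rose by 0.87 in Sohlh1 knockout (limma adjusted p = 0.00188) and by 1.03 in Sohlh2 knockout (limma adjusted p = 0.000642), and passed in all 12 fits that left out 1 array in each.

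Abhd5, the coactivator of the main triglyceride lipase, and Lpin1, a phosphatidate phosphatase, fell in Sohlh1 knockout. Abhd5 averaged 608 ± 96.5 in Sohlh1 knockout and 672 ± 55.8 in Sohlh2 knockout, against 937 ± 70.6 in wild type, with log2 fold changes of -0.62 (limma adjusted p = 0.019) and -0.47 (adjusted p = 0.0807). Lpin1 averaged 371 ± 55.2 in Sohlh1 knockout and 414 ± 109 in Sohlh2 knockout, against 610 ± 72.4 in wild type, with log2 fold changes of -0.70 (limma adjusted p = 0.044) and -0.57 (adjusted p = 0.123). Whether these differences are unlike in the knockouts is not shown, since neither gene passed between them. In Sohlh1 knockout Abhd5 passed in 9 and Lpin1 in 2 of 12 fits that left out 1 array. In Sohlh2 knockout Abhd5 passed, at -0.42, leaving out the 2 arrays whose Actb ratio was high (limma adjusted p = 0.0304) and leaving out all 3 arrays that stand apart (adjusted p = 0.0343).

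The counts on the list of triglyceride and phospholipid acylation, 30 genes, moved with the arrays. With all arrays 2 fell and 1 rose in Sohlh1 knockout, and 0 fell and 1 rose in Sohlh2 knockout. Leaving out the 2 arrays that go against their labels, 3 fell and 2 rose in Sohlh1 knockout and 1 fell and 1 rose in Sohlh2 knockout. Mgll, the lipase of monoglycerides, named here after its values were seen, was then among the genes that fell in each. Leaving out the 2 arrays whose Actb ratio was high, 3 fell and 1 rose in Sohlh1 knockout and 2 fell and 1 rose in Sohlh2 knockout. Leaving out all 3, only Abhd5 of the list fell in Sohlh1 knockout, while Mgll and Abhd5 fell in Sohlh2 knockout, and Gpat2 rose in both. Falls on this list are thus not shown to be particular to Sohlh1 knockout.

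Thioesterases split the acyl-CoA that Slc27 and Acsl enzymes make. Of 9 tested, Acot7 fell in Sohlh1 knockout, where it averaged 882 ± 61.1, and averaged 1051 ± 83.2 in Sohlh2 knockout, against 1174 ± 77.9 in wild type. Its log2 fold change was -0.41 (limma adjusted p = 0.042) in Sohlh1 knockout and -0.16 (adjusted p = 0.508) in Sohlh2 knockout, and it passed in 2 of 12 fits that left out 1 array. Acot13, a thioesterase found with mitochondria, averaged 1934 ± 168 in Sohlh1 knockout and 2038 ± 161 in Sohlh2 knockout, against 1494 ± 70.7 in wild type. Every knockout array exceeded every wild-type array. Acot13 rose by 0.44 in Sohlh2 knockout (limma adjusted p = 0.0248), and the value in Sohlh1 knockout was 0.37 (adjusted p = 0.0525). It passed in 6 of 12 fits that left out 1 array in Sohlh2 knockout, where the adjusted p reached 0.0806, and in 1 of 12 in Sohlh1 knockout. Leaving out the 2 arrays that go against their labels, Acot13 passed in both knockouts, and leaving out all 3 arrays that stand apart, Acot7 did not pass in Sohlh1 knockout (-0.38, limma adjusted p = 0.0838).

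**Figure D5:**
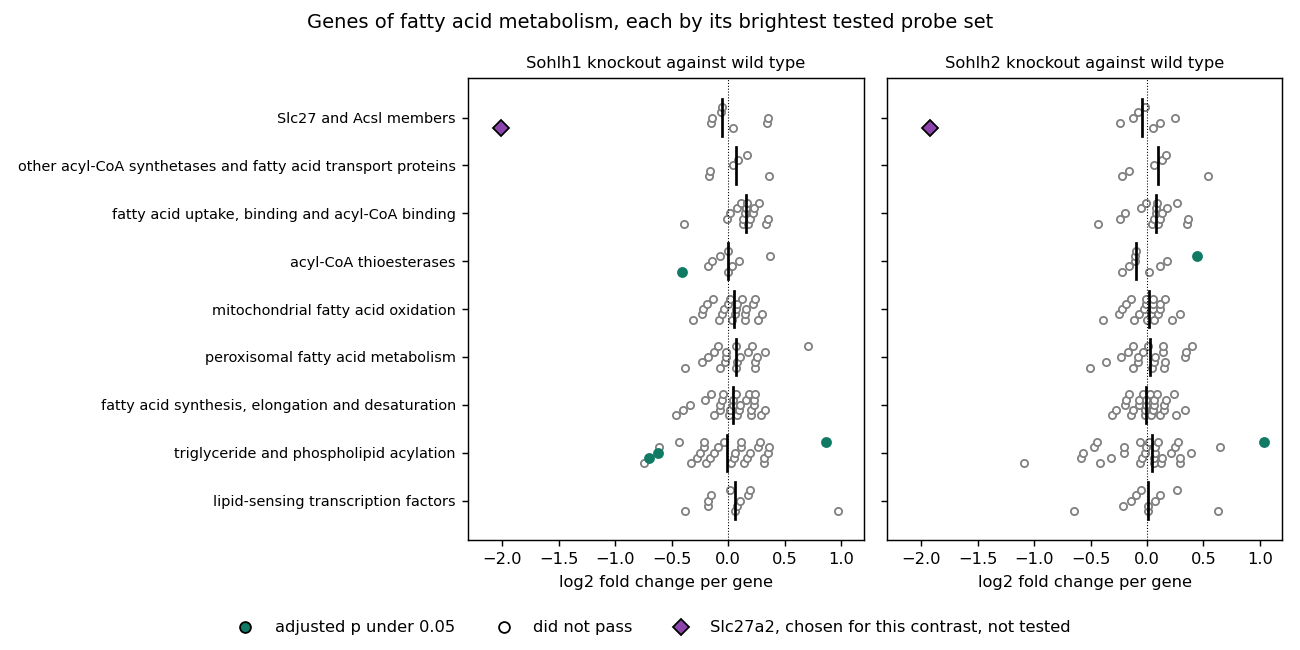
Log2 fold change per gene (horizontal) for the Slc27 and Acsl members and 8 lists of fatty acid metabolism, in Sohlh1 knockout against wild type (left) and Sohlh2 knockout against wild type (right), with 1 point per gene by its brightest tested probe set and a black bar at the median of each list. Filled points passed an adjusted p of 0.05 in limma, and Slc27a2 (diamond) at -2.01 and -1.92 was not tested. Gpat2 is the filled point at 0.87 and 1.03.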

How the data were processed

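The deposited table holds a signal intensity for each of 45101 probe sets on 12 arrays, on a linear scale, which the authors made with GCOS and MAS5, per the submitters' processing notes. Tool versions, settings and a genome build are not stated there. The table shows that each array has the same mean after 2% is trimmed at each end, and it was not normalized further. Intensity was taken as log2(value + 14.2), with 14.2 the 20th percentile of the non-control values, which draws fold changes of dim probe sets towards 0. No control probe set (64 in all) was used, and a probe set was tested if it exceeded 48.6, the 40th percentile, on at least 4 of 12 arrays, as 28694 did. Symbols came from GEO's platform annotation: of 45037 probe sets 34945 had 1 symbol, 932 several and 9160 none. Differences were fitted with limma 3.58.1 in R 4.3.3 (lmFit, then eBayes with its trend option) as a two-sided test, with genotype as the only term over all 12 arrays. The Benjamini-Hochberg adjustment ran over all tested probe sets, and a probe set or gene is said to have risen or fallen at an adjusted p under 0.05.

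The labels' replicate numbers showed no pairing of arrays. Deviations from group means correlated at -0.117 to 0.101 over 7 same-numbered pairs, against -0.260 to 0.379 over 39 other-numbered pairs. The number of arrays limits the precision. The fit was tested on simulated data, where it recovered 20% of changes of 1.5-fold and 60% of changes of 2-fold. A gene that did not pass may thus still have changed by such an amount. The members, the gene lists and the rule for named genes were chosen with earlier results of these data known. The rule took all members, the targeted genes Sohlh1 and Sohlh2, up to 4 called genes of each list per contrast, and the 5 genes closest to Slc27a2 in profile. Named beyond the rule were Cd36, Prss50, Mgll and the untested fat cell markers Adipoq, Lep, Cidec and Pparg. Alternatives were other log offsets, filters, normalizations and fits, the replicate number as a block, leaving out each array, and leaving out the arrays that stand apart. Samples were never moved between groups. Figures were drawn with matplotlib 3.10.9.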

Additional observations from a re-analysis of the deposited data

Results flagged for a closer look

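Among 42 groups of 4 arrays, 3 for each member probe set, 7 held 1 array far from the others, by Dixon's test of the gap over the range at 95%. Chance gives about 1 in 20. Acsl4 held 4 of them. Acsl4 1418911_s_at was at 413.9 on the array labelled Sohlh1 knockout 2, against 538.8 to 552.7 on the others of its group, and at 187 on that labelled Sohlh2 knockout 1, against 571.2 to 644.3. Acsl4 1451828_a_at was at 129.8 on the array labelled Sohlh2 knockout 1, against 275.3 to 314.4, and Acsl4 1433531_at was high there at 1423, against 1282 to 1288. These are the 2 arrays whose Actb ratio was high. Acsl3 1452771_s_at stood high at 1592 on Sohlh1 knockout 3, against 1355 to 1373, and at 1466 on Sohlh2 knockout 5, against 1369 to 1377. Slc27a4 1424441_at stood low at 788.4 on wild type 5, against 1111 to 1152.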

How the results depend on the processing

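Over 27 alternative settings, 1093 of 1113 values of the member probe sets kept their side of the threshold or moved by less than the spread between arrays, 15 lost the call and 5 moved further. None of the called values changed sign, and 101 values called in neither fit did. The 15 lost calls were all of Acsl3 1428387_at. The count of members that rose was 0 in both knockouts with 1 probe set per gene, which leaves that probe set out, and 0 in Sohlh1 knockout without the 3 arrays that stand apart. Leaving out 1 array at a time it was 0 to 1 in both. With the replicate block it was 0 in both knockouts, and Acsl3 1428387_at had 0.98 (adjusted p = 0.053) in Sohlh1 knockout and 1.18 (adjusted p = 0.0814) in Sohlh2 knockout with array 3-1 as its own number, and 0.98 (adjusted p = 0.0501) and 0.98 (adjusted p = 0.0543) with it as number 3. The arrays share only a number, so this setting cannot settle whether the effect is weaker. Slc27a2 moved to -1.43 in Sohlh1 knockout and -1.38 in Sohlh2 knockout with the log offset at the median of all values, which by construction shrinks dim signals more. Of all tested probe sets, 600 passed in Sohlh1 knockout and 343 without the mean-variance trend, 1227 with array weights, 338 with the replicate block (3-1 on its own), 991 without the 2 arrays whose Actb ratio was high, and 230 to 1238 leaving out 1 array. In Sohlh2 knockout 445 passed, and 293 without the trend, 1075 with array weights, 283 with only the 2 groups compared, 98 with the replicate block (3-1 on its own), 747 without the 2 arrays of high ratio, 767 without all 3 arrays that stand apart, and 202 to 503 leaving out 1 array. Between the knockouts 0 passed, and 9 without the 2 arrays that go against their labels and 11 without all 3. The cause of these shifts was not tested. The limits are 4 pools per group, 3 arrays that stand apart, 1 probe set for Slc27a2, and probe sets of Acsl3 and Acsl4 that disagree within the gene.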
